A study of Mus musculus with 6 samples.

Results

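Macrophages that carried few or no transcripts of Arg1 and Cxcl9 were examined in mouse colon tumours. Arg1 encodes arginase 1, an arginine-degrading enzyme made by many tumour macrophages, and Cxcl9 encodes an interferon-gamma-induced chemokine. Members were chosen by the UMIs (counted RNA molecules) of single cell barcodes. A barcode had to have at least 200 detected genes and at most 10% mitochondrial UMIs. It had to hold at least 3 UMIs of Csf1r, Adgre1, C1qa, C1qb and C1qc together, fewer than 5 of Arg1 and fewer than 3 of Cxcl9. Barcodes with 2 or more UMIs of Ly6c2 (monocytes), of Cd209a, or of Xcr1 and Clec9a together (dendritic cells) were left out. So were barcodes with any UMI of Siglech (plasmacytoid dendritic cells), Cd3d, Cd3e or Cd3g (T cells) or Cd79a (B cells). In all, 1787 of 33862 barcodes met the rule. Before the limits on Arg1 and Cxcl9, 4040 barcodes met it, and of these 1526 had 5 or more Arg1 UMIs and 727 had fewer than 5 of Arg1 but 3 or more of Cxcl9.

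The cells had been sorted from colon tumours as negative for the dead-cell dye 7-AAD and the epithelial antigen EpCAM and positive for the leukocyte antigen CD45. There were 6 libraries made with 10x Genomics 3' v3 chemistry, 1 for each genotype at each of 3 collections. They were the 2-week SOX17KO and Control libraries with 218 and 176 members, the 1-week SOX17KO and Control libraries with 699 and 578, and an untimed SOX17KO and Control pair, whose labels give no week, with 57 and 59. SOX17 is a transcription factor of the SOX family, and SOX17KO names its knockout. The series describes tumours of 5 mice pooled for each condition. What the weeks count from, the strain, the age and sex of the mice, and the alleles or cells that carried the knockout are not given in the sources used here. With 1 library in each group, a p-value below rests on how far the collections or genotypes disagree, and a difference between collections cannot be told apart from one of handling or sequencing day. Sox17 had 2 UMIs in the members of the 1-week Control library and 0 in those of the other 5, so it checks no label here, and the knockout is not stated to lie in immune cells.

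Tissue macrophages depend on the receptor for colony-stimulating factor 1, encoded by Csf1r, and many of them secrete C1q, the first component of the classical complement pathway, built from the chains of C1qa, C1qb and C1qc. In the colon most macrophages are renewed by blood monocytes, which lose monocyte genes such as Ly6c2 and Plac8 and gain C1q, MHC class II and scavenger receptors as they settle. A smaller resident type, known from many tissues, carries Lyve1, Folr2, Cd163 and Timd4. In tumours macrophages can clear dead cells and lipid, present antigen to T cells, draw in more monocytes through CC chemokines, and respond to interferons.

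The label was checked first, and the members were not macrophages to the same degree in every library. Csf1r, which took part in the choice, was at 547 and 476 CPM in the 2-week SOX17KO and Control libraries, 452 and 482 CPM in the 1-week SOX17KO and Control libraries, and 395 and 530.4 CPM in the untimed SOX17KO and Control libraries. CPM are here the UMIs of a gene over all UMIs of the members of a library, scaled by the TMM method. Apoe, the lipid carrier apolipoprotein E and no part of the rule, was high in each, at 3485 and 2714 CPM, 3072 and 3916 CPM and 4359.6 and 1924 CPM in the same order of pairs. C1qa was at 1302 and 669.6 CPM in the 2-week SOX17KO and Control libraries and at 1079 and 1513 CPM in the 1-week SOX17KO and Control libraries. In the untimed pair it was at 984 and 106 CPM in SOX17KO and Control. The untimed Control members thus stood apart: 52 of 59 had no UMI of any C1q chain and 5 had 3 or more, against 36 of 57 with 3 or more in the untimed SOX17KO library. The share with 3 or more C1q UMIs was 73.4% and 55.7% in the 2-week SOX17KO and Control libraries and 67.4% and 75.4% in the 1-week SOX17KO and Control libraries. The median of the 5 selecting macrophage genes together was 11 and 5 UMIs at 2 weeks, 9 and 12 at 1 week and 12 and 4 in the untimed pair, SOX17KO before Control.

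**Figure D1:**
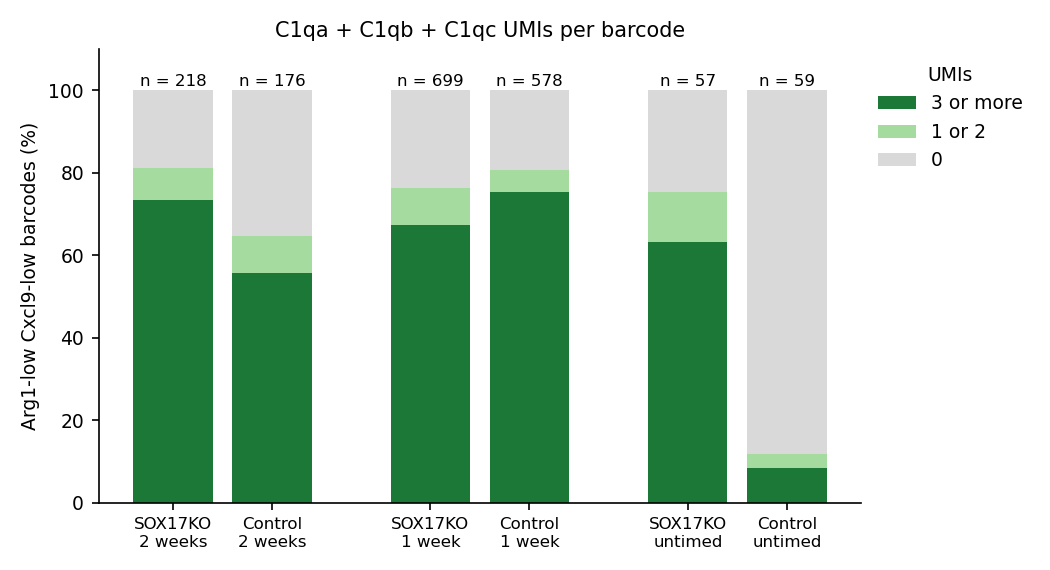
Members of each library (percent, y axis) by their summed UMIs of C1qa, C1qb and C1qc, in the SOX17KO and Control library of each collection, with the number of members above each bar. Members with 3 or more C1q UMIs were between 55.7% and 75.4% in 5 libraries and 8.47% in the untimed Control library.

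Transcripts of other cell types were present in part of the members. The 8 monocyte genes (Plac8, Ccr2, Ly6c2 and others) summed to 2691 and 5072 CPM in the 2-week SOX17KO and Control libraries, 4309 and 3941 CPM in the 1-week ones, and 700.1 and 5094 CPM in the untimed SOX17KO and Control libraries, without TMM scaling. The share of members with 3 or more UMIs of this list ran from 35.1% in the untimed SOX17KO library to 88.1% in the 2-week Control library. The 8 neutrophil genes (S100a8, S100a9, G0s2, Csf3r and others) summed to 1316 and 164 CPM, 1245 and 708 CPM, and 251 and 6892 CPM in the same order. In the untimed Control library 37.3% of members had 3 or more neutrophil UMIs, against 3.51% in the untimed SOX17KO library. The type 1 dendritic cell list (Naaa, Wdfy4 and others) summed to 234 to 786 CPM. At 1 week 51.4% and 53.5% of SOX17KO and Control members had 3 or more of its UMIs. The T cell list, whose Cd3 genes the rule held at 0, summed to at most 129 CPM in any library. The NK cell list reached 193 CPM in the 1-week Control library. Mast cell or basophil genes were at 43.7 CPM in the 1-week SOX17KO library and at 0 in both untimed libraries. Whether a barcode with such transcripts was a maturing monocyte, a mixed droplet or a macrophage with free RNA was not tested. The gene tests are therefore given with and without the untimed pair. In such summed libraries, fewer cells of a kind and less RNA in each cell cannot be told apart.

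Among the members, those with and without C1q differed in other macrophage genes too. This split was made after the data had been seen and rests on genes of the rule, so it is a description of single libraries. In the 1-week SOX17KO library, Apoe was at 3896 CPM in members with 3 or more C1q UMIs and 1218 CPM in those with 0. Pf4, a chemokine of platelets and resident-type macrophages, was at 1388 and 33.6 CPM, and the mannose receptor gene Mrc1 at 1079 and 345 CPM. Plac8, a gene of blood monocytes, went the other way with 1756 and 4057 CPM. In the 1-week Control library the same 4 genes were at 4639 and 1466 CPM for Apoe, 1486 and 91.4 for Pf4, 1212 and 447 for Mrc1, and 1712 and 3871 for Plac8. Csf1r was nearly even, at 424 and 521 CPM in SOX17KO and 465 and 562 CPM in Control. By the rule, members without C1q had to reach 3 UMIs with Csf1r and Adgre1 alone. Their Csf1r level was therefore partly set by the choice and cannot show that the subsets are alike. The members without C1q had median depths of 5657 and 5463 UMIs in these 2 libraries, close to those of the members with C1q, at 5664 and 5038 UMIs.

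Low did not mean absent for the genes that set the name. Members with 1 to 4 Arg1 UMIs were 25.7% and 18.8% of the 2-week SOX17KO and Control members and 24.2% and 22% of the 1-week ones, but 1.75% and 3.39% in the untimed pair. Members with 1 or 2 Cxcl9 UMIs were 17.4% and 25% at 2 weeks, 14.9% and 15.4% at 1 week, and 3.51% and 0% in the untimed pair. At the border, 25 members of the 1-week SOX17KO library had 4 Arg1 UMIs and 29 barcodes had 5 and fell outside. The Arg1-high barcodes of that library had a median of 33 Arg1 UMIs. Members were shallower than those barcodes, with medians of 5435 and 8389 UMIs in the 1-week SOX17KO library, and a limit in raw UMIs is easier to stay under at low depth. Over all libraries the median depth of members was 3199 to 5435 UMIs, and no member barcode was shared between libraries.

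The members made up a similar part of the immune cells of both genotypes at 1 week and a larger part in SOX17KO at 2 weeks, with 1 library behind each value. At 2 weeks they were 7.24% [6.34, 8.22] of SOX17KO barcodes and 3.68% [3.16, 4.25] of Control barcodes, with exact Clopper-Pearson 95% intervals that cover counting error only. At 1 week they were 9.56% [8.90, 10.3] of SOX17KO and 10.5% [9.72, 11.4] of Control barcodes, and in the untimed pair 0.893% [0.677, 1.16] and 0.857% [0.653, 1.10], with SOX17KO first. The log2 odds of SOX17KO over Control were 1.03 at 2 weeks, -0.15 at 1 week and 0.060 in the untimed pair, a mean of 0.31 ± 0.63 (SD, n = 3 pairs). Flipping the signs of the 3 pair values in an exact two-sided permutation test gave p = 0.75, where 0.25 is the smallest p that 3 pairs allow. As a share of all macrophage-gate barcodes they were 58.3% [53.1, 63.3] and 46.7% [41.6, 51.9] at 2 weeks and 38.4% [36.2, 40.7] and 42.8% [40.1, 45.5] at 1 week in SOX17KO and Control (exact permutation p = 0.5 over the 3 pairs). The mean log2 odds of this share was 0.37, and -0.12 with barcodes thinned to 2000 UMIs. In the untimed pair nearly every gate barcode was a member, 98.3% [90.8, 100.0] in SOX17KO and 96.7% [88.7, 99.6] in Control. With each barcode thinned to 2000 UMIs, the 2-week shares of all barcodes were 8.37% and 4.11% and the 1-week shares 15% and 16.8%.

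**Figure D2:**
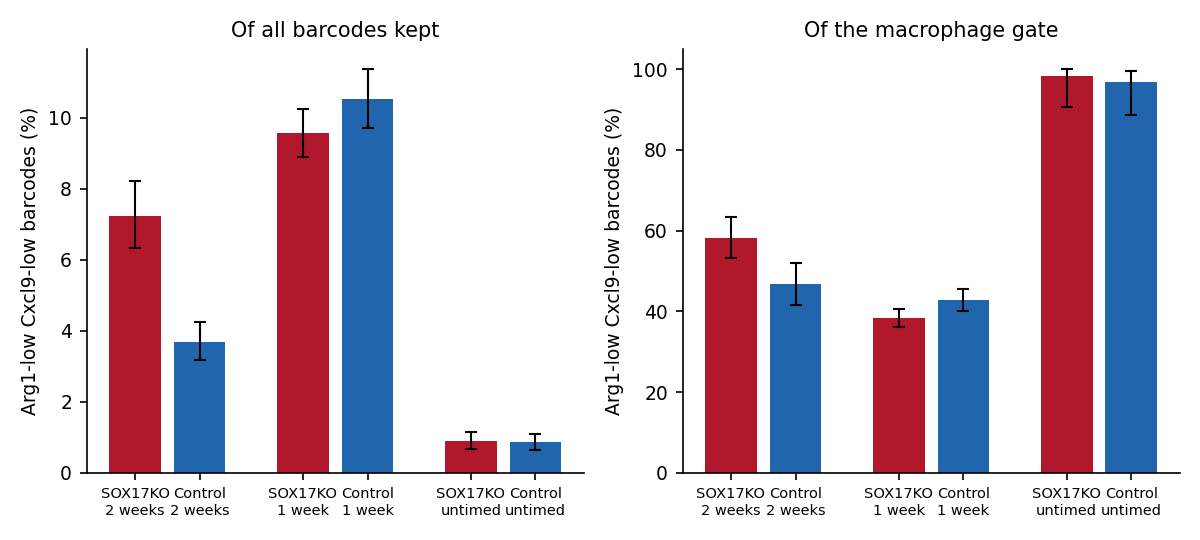
Share of Arg1-low Cxcl9-low barcodes (percent, y axis) among all barcodes kept (left) and among the macrophage gate (right) in the SOX17KO (red) and Control (blue) library of each collection; error bars are 95% Clopper-Pearson intervals. The 2-week shares of all barcodes were 7.24% in SOX17KO and 3.68% in Control.

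The clearest differences lay between the collections. From the 1-week to the 2-week libraries, members of both genotypes had less of the monocyte-attracting chemokines, of resident-type genes, of cell cycle genes and of interferon-induced genes, and more MHC class II, Cxcr4 and Vegfa. UMIs were summed over the members of a library and tested with edgeR (quasi-likelihood, collection and genotype as terms, Benjamini-Hochberg adjusted p under 0.05). With all 6 libraries it called 0 of 7844 genes between 2 weeks and 1 week (0%), with 622 genes at an unadjusted p under 0.05. On the same counts DESeq2 called 1 gene higher and 7 lower, and limma-voom 0. Fitted on the 4 timed libraries alone, edgeR called 336 of 9370 genes higher at 2 weeks (3.59%) and 448 lower (4.78%). There limma-voom called 487 higher and 444 lower, and DESeq2 35 and 50. Of the 784 genes called by edgeR, 771 had the same direction in SOX17KO and Control. The call averages these same differences, so this agreement was largely set by it. Of all 7844 genes of the 6-library fit, 31.7% were higher and 32.6% lower at 2 weeks in both genotypes. The fit with 4 libraries has 1 residual degree of freedom, the disagreement of the time difference between genotypes, and edgeR gave every gene the spread common to all genes, so a gene whose pairs disagree can still pass with a very small p. Its values are the ones called rises and falls in the paragraphs on time. They are given in parentheses as the log2 fold change ± SE of 2 weeks over 1 week with edgeR's adjusted p.

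Genes of CC chemokines fell, among them those of CCL2, CCL7 and CCL12, ligands of the monocyte receptor CCR2. Ccl12 was at 24.3 and 32.5 CPM in the 2-week SOX17KO and Control libraries, against 290.5 and 412 CPM in the 1-week SOX17KO and Control libraries, and fell (-3.63 ± 0.25, adjusted p = 3.96e-44). In the fit to all 6 libraries its adjusted p in edgeR was 0.0696. Ccl7 was at 47.6 and 70.9 CPM in the 2-week SOX17KO and Control libraries, against 563 and 685 CPM in the 1-week SOX17KO and Control libraries, and fell (-3.43 ± 0.23, adjusted p = 1.26e-47). Ccl2 was at 108 and 219 CPM in the 2-week SOX17KO and Control libraries, against 816 and 1029 CPM in the 1-week SOX17KO and Control libraries, and fell (-2.59 ± 0.21, adjusted p = 8.63e-33). Ccl8 was at 112 and 170.0 CPM in the 2-week SOX17KO and Control libraries, against 712 and 1169 CPM in the 1-week SOX17KO and Control libraries, and fell (-2.74 ± 0.21, adjusted p = 2.90e-36). In each of the 4 genes both 2-week libraries lay under both 1-week libraries. The 4 genes lie near each other on mouse chromosome 11 of mm10, at chr11:82035571-82037453, chr11:82045712-82047525, chr11:82101845-82103400 and chr11:82115185-82116799, all on the plus strand. In the untimed pair they were low as well, at 14.6 and 11 CPM of Ccl12 and 62.2 and 0 CPM of Ccl8 in SOX17KO and Control. Ccl24, an eotaxin that draws in eosinophils, fell too (-2.89 ± 0.21, adjusted p = 2.95e-39).

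Other genes of the chemokine list rose. The receptor gene Cxcr4, whose ligand CXCL12 holds cells in tissue and marrow, was at 539.7 and 334 CPM in the 2-week SOX17KO and Control libraries, against 145 and 116 CPM in the 1-week SOX17KO and Control libraries, and rose (1.71 ± 0.20, adjusted p = 2.93e-15). Ccl5, a chemokine gene of T cells and macrophages, rose (1.25 ± 0.20, adjusted p = 5.10e-08), as did Cxcl16, the ligand of CXCR6 (0.97 ± 0.19, adjusted p = 3.19e-05). Ccr2 itself was at 985 and 1169 CPM at 2 weeks and 931 and 872 CPM at 1 week in SOX17KO and Control, a log2 fold change of 0.24 ± 0.19, adjusted p = 0.52. Of the 13 tested genes of chemokines and receptors, 3 rose and 5 fell. The median of the list was -0.34 on the log2 scale, against -0.0072 for all genes tested. In T cell barcodes of the 1-week SOX17KO and Control libraries Ccl12 was at 1.32 and 5.31 CPM, but Ccl2 was at 95.1 and 568 CPM and Ccl7 at 25.1 and 328 CPM. The part of free RNA in the Ccl2 and Ccl7 levels was not tested.

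Most resident-type genes fell. Lyve1, a hyaluronan receptor gene, was at 0 and 1.48 CPM in the 2-week SOX17KO and Control libraries, against 28 and 38.8 CPM in the 1-week SOX17KO and Control libraries, and fell (-5.67 ± 0.71, adjusted p = 8.32e-13). Its UMIs were 0 and 1 at 2 weeks against 115 and 124 at 1 week in SOX17KO and Control, so the 2-week level rests on almost no molecules. Folr2, a folate receptor gene, was at 6.80 and 5.91 CPM in the 2-week SOX17KO and Control libraries, against 55.2 and 84.2 CPM in the 1-week SOX17KO and Control libraries, and fell (-3.38 ± 0.36, adjusted p = 3.22e-18). Pf4 was at 213 and 78.3 CPM in the 2-week SOX17KO and Control libraries, against 982 and 1164 CPM in the 1-week SOX17KO and Control libraries, and fell (-2.96 ± 0.21, adjusted p = 2.15e-40). The scavenger receptor gene Cd163 fell (-2.77 ± 0.76, adjusted p = 0.00638) and so did Mrc1 (-1.20 ± 0.19, adjusted p = 5.39e-08), F13a1, a coagulation factor subunit gene (-1.12 ± 0.20, adjusted p = 2.98e-06), Cbr2 (-3.32 ± 0.44, adjusted p = 2.54e-11), Gas6, a ligand of the receptors for dead-cell uptake (-2.47 ± 0.34, adjusted p = 8.17e-11), and Stab1 (-1.39 ± 0.25, adjusted p = 3.40e-06). In all, 9 of 13 tested genes fell and 0 rose, with a list median of -1.39. The medians were -0.97 in SOX17KO and -2.71 in Control over the 13 genes of the 6-library fit. Selenop, a selenium carrier gene, did not pass, at 809 and 406 CPM at 2 weeks and 764 and 826 CPM at 1 week in SOX17KO and Control (-0.47 ± 0.19, adjusted p = 0.111).

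Some genes of this list were read per barcode after thinning each member to 1000 UMIs, which left out 0 to 28 members of a library. A UMI of Mrc1 was found in 32.7% and 22.6% of 2-week members and 42.9% and 48.9% of 1-week members in SOX17KO and Control. T cell barcodes, which should lack it and were taken only without UMIs of the 5 selecting macrophage genes, so that the background of free macrophage RNA may be understated, gave 0.141%, 0.147%, 0% and 3.90% in the same libraries, at median depths of T cell barcodes of 3366 to 5642 UMIs over all libraries. Folr2 was found in 0.976% and 0.610% at 2 weeks and 5.51% and 5.78% at 1 week, and in 0% of T cell barcodes. Without thinning, the Mrc1 shares were 56.4% and 42% at 2 weeks and 69.4% and 74.7% at 1 week. For Lyve1 the thinned share was 0 of 205 and 0 of 164 at 2 weeks, which at a floor of 3 counts allows up to 1.46% and 1.83%, against 1.79% and 2.89% at 1 week. Cx3cr1, a receptor gene of the same list, differed between the genotypes. Its thinned share was 10.2% at 2 weeks and 3.73% at 1 week in SOX17KO, but 6.10% and 7.76% in Control. T cell barcodes gave 2.40% and 3.68% at 2 weeks in SOX17KO and Control and 0% at 1 week.

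**Figure D3:**
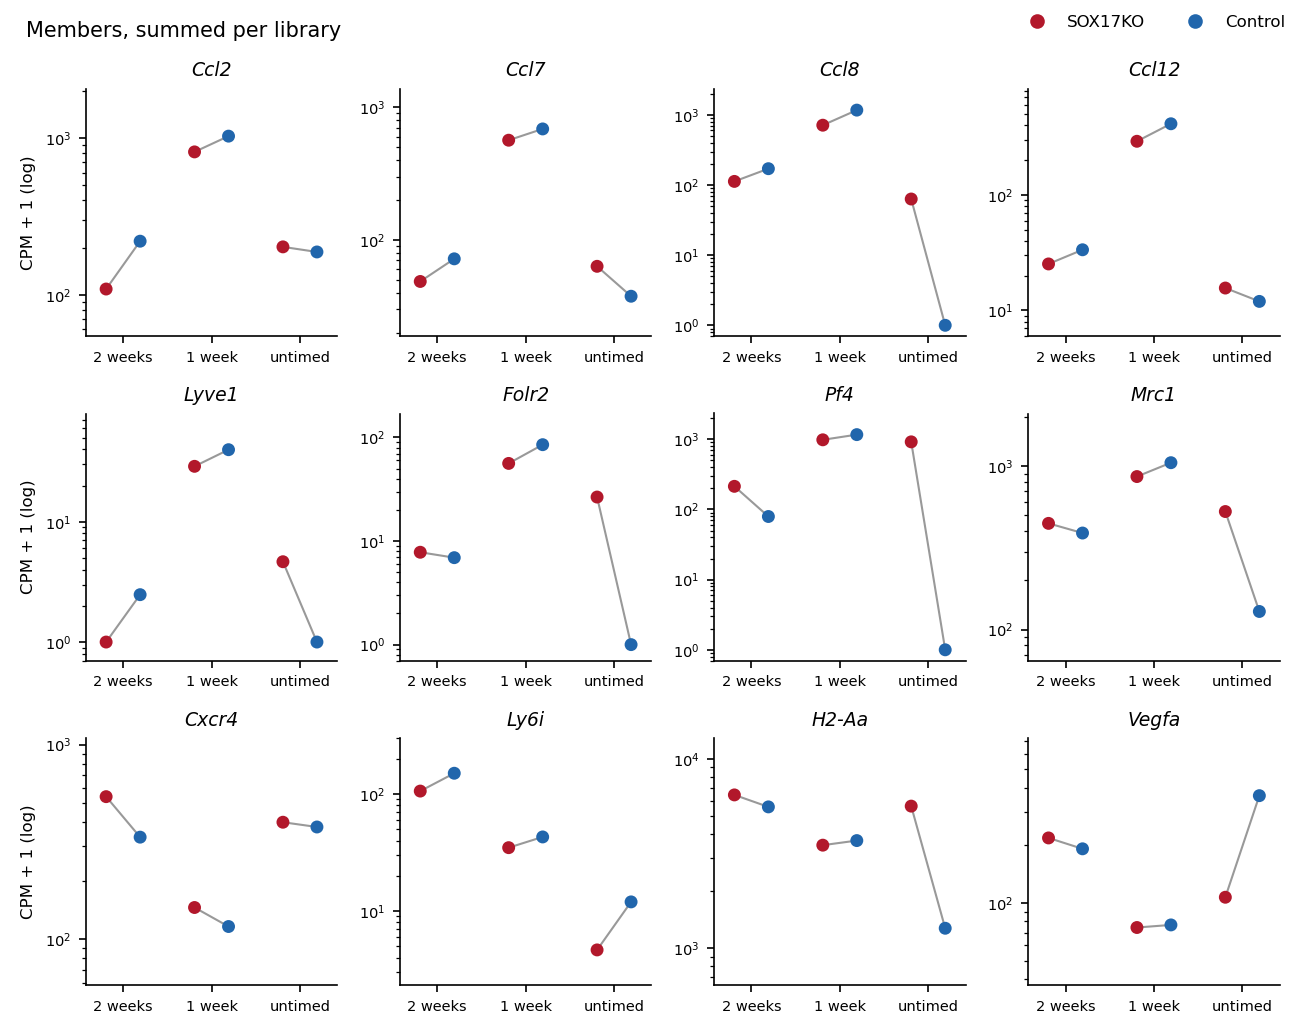
Expression of 12 genes in Arg1-low Cxcl9-low members (CPM + 1, log y axis), 1 point for each library, red for SOX17KO and blue for Control, with a line joining the genotypes of a collection. The 4 CC chemokine genes and 4 resident-type genes lay lower in both 2-week libraries than in both 1-week libraries, and the 4 genes of the bottom row lay higher.

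Antigen presentation genes of class II rose. H2-Aa, a class II alpha chain gene, was at 6444 and 5569 CPM in the 2-week SOX17KO and Control libraries, against 3494 and 3695 CPM in the 1-week SOX17KO and Control libraries, and rose (0.72 ± 0.19, adjusted p = 0.00445). Cd74, the invariant chain that guides class II molecules to endosomes, was at 10233 and 10148 CPM at 2 weeks and 5699.8 and 6421 CPM at 1 week in SOX17KO and Control, and rose (0.74 ± 0.19, adjusted p = 0.00426). H2-Ab1 and H2-Eb1 rose by 0.65 and 0.65, and Ciita, the master transactivator of class II genes, by 0.74 on the log2 scale. In all 7 of 10 class II genes rose and 0 fell, with a median of 0.73. The untimed SOX17KO library resembled the 2-week ones with 5621 CPM of H2-Aa, while the untimed Control library, with few C1q-bearing members, had 1269 CPM. The part of C1q in that gap was not tested. Class I genes were mixed: 2 of 20 rose and 3 fell, the falls including the immunoproteasome genes Psmb8 (-0.62) and Psmb10 (-0.96).

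Interferon-induced genes fell in both genotypes. Isg15 was at 48.5 and 177 CPM in the 2-week SOX17KO and Control libraries, against 252 and 434 CPM in the 1-week SOX17KO and Control libraries, and fell (-1.79 ± 0.21, adjusted p = 1.62e-14). Isg15 encodes a ubiquitin-like modifier induced by type I interferon. Irf7, a transcription factor that amplifies the same response, was at 25.2 and 54.7 CPM in the 2-week SOX17KO and Control libraries, against 106 and 155 CPM in the 1-week SOX17KO and Control libraries, and fell (-1.78 ± 0.24, adjusted p = 5.42e-11). Of 20 tested genes of the type I list, 16 fell and 0 rose, with a median of -1.20. Of 18 genes of the interferon-gamma list, 10 fell and 1 rose, with a median of -0.70. Among those that fell were the guanylate-binding protein genes Gbp2 (-0.72), Gbp5 (-0.90) and Gbp7 (-1.02), the GTPase gene Iigp1 (-1.25) and Cxcl10 (-2.18). Nos2, inducible nitric oxide synthase, was the 1 that rose (1.47 ± 0.28, adjusted p = 1.81e-05), but it was at 96.1 and 16.3 CPM in the 2-week SOX17KO and Control libraries and 14.3 and 26 CPM in the 1-week ones, so it was higher at 2 weeks in SOX17KO and lower in Control. Cxcl9 was part of the rule and is not tested here.

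Inflammatory cytokine genes fell as well, 10 of 15, and 0 rose. Tnf, which encodes tumour necrosis factor, was at 64.1 and 34 CPM in the 2-week SOX17KO and Control libraries, against 224 and 221 CPM in the 1-week SOX17KO and Control libraries, and fell (-2.19 ± 0.23, adjusted p = 2.43e-18). Cxcl2, a neutrophil chemokine gene, fell (-1.58 ± 0.19, adjusted p = 1.30e-13), as did Cxcl1 (-3.51 ± 0.40, adjusted p = 2.35e-15), Il1a (-2.21 ± 0.28, adjusted p = 1.36e-12) and Ccl4 (-0.91 ± 0.19, adjusted p = 9.93e-05). Il1b, the most abundant gene of the list, was nearly level at 4146 and 3717 CPM at 2 weeks and 4185 and 4366 CPM at 1 week in SOX17KO and Control (-0.14 ± 0.19, adjusted p = 0.766). Its highest value of the 6 libraries was 10049 CPM in the untimed Control library, the one rich in neutrophil and monocyte transcripts.

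Cell cycle genes were low throughout and lower at 2 weeks. Stmn1, a regulator of the mitotic spindle, was at 5.82 and 4.43 CPM in the 2-week SOX17KO and Control libraries, against 43.3 and 57 CPM in the 1-week SOX17KO and Control libraries, and fell (-3.21 ± 0.40, adjusted p = 6.70e-13). Mki67 and Top2a had log2 fold changes of -1.63 and -2.04, and 9 of 14 tested genes of the list fell and 0 rose. After thinning, a UMI of Mki67 was found in 0.976% and 0.610% of 2-week members and 2.38% and 3.43% of 1-week members, at or below the 10.4%, 13.3%, 3.42% and 7.79% of T cell barcodes of those libraries. T cells themselves divide, so they are no empty background for this gene.

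Other functions moved in part. Of the iron genes 4 of 10 fell and 0 rose, among them Hmox1, haem oxygenase 1 (-1.27 ± 0.20, adjusted p = 5.06e-08). Hmox1 was at 109 and 336 CPM in the 2-week SOX17KO and Control libraries, against 462 and 471 CPM in the 1-week SOX17KO and Control libraries, and the 2-week Control library stayed near the 1-week ones. Of the phagocytosis receptors 5 of 12 fell and 0 rose, led by the high-affinity IgG receptor gene Fcgr1 (-1.30 ± 0.20, adjusted p = 2.60e-08). The lipid-associated genes split: the fatty acid carrier gene Fabp5 (-1.52 ± 0.20, adjusted p = 3.09e-12) and Spp1, osteopontin (-1.22 ± 0.22, adjusted p = 5.00e-06), fell, and the cholesterol exporter gene Abca1 (0.80 ± 0.19, adjusted p = 0.00135) and Cd9 (0.64 ± 0.20, adjusted p = 0.0243) rose, 2 up and 2 down of 15. Of hypoxia and glycolysis genes 3 of 17 rose and 0 fell. Vegfa, the growth factor gene of blood vessels, was at 217 and 191 CPM in the 2-week SOX17KO and Control libraries, against 73.4 and 75.8 CPM in the 1-week SOX17KO and Control libraries, and rose (1.44 ± 0.20, adjusted p = 5.86e-10). Lysosome genes and mitochondrially encoded genes had 0 rises and 0 falls of 14, and 0 and 0 of 10, and Ctss, a class II processing protease gene, gave 0.52 ± 0.19, adjusted p = 0.0582. Complement genes outside the rule had 2 rises, among them C3 (0.74), and 2 falls, among them C5ar1 (-1.02), of 9. Alternative activation genes had 3 rises and 2 falls of 13, with Retnla, a resistin-like secreted protein gene, at 2011 and 2598 CPM at 2 weeks and 831 and 949 CPM at 1 week (1.35 ± 0.19, adjusted p = 2.31e-10). Matrix genes had 2 rises and 3 falls of 14. Immediate early genes, which tissue digestion can induce, had 4 rises and 1 fall of 16, led by Hspa1b (1.03), Dusp1 (0.83) and Fos (0.78), and whether handling differed between the collections was not tested.

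By a rule that ranked genes on the smaller of their differences in the 2 genotypes, the 10 genes highest at 2 weeks included Ksr2, Abcd2, Zfyve28, H2-Oa, Ly6i, Taco1, Cxcr4, Ldlrad3 and Kit, and the 10 lowest were Lyve1, Mucl1, Ccl12, Ccl7, Ednrb, Folr2, Areg, Ifi208, Pclaf and Ccl8. None passed with 6 libraries. In the 4 timed libraries, Ly6i, a member of the Ly6 family of surface proteins, was at 105 and 149 CPM in the 2-week SOX17KO and Control libraries, against 33.8 and 42 CPM in the 1-week SOX17KO and Control libraries (1.71 ± 0.22, adjusted p = 1.71e-12). Kit, the receptor gene of mast and progenitor cells, was at 14.6 and 19.2 CPM against 4.62 and 3.44 CPM, and mast cell or basophil genes summed to 0.972 and 1.46 CPM at 2 weeks. Ednrb, the endothelin receptor B gene, was at 0 and 5.91 CPM in the 2-week SOX17KO and Control libraries, against 36.9 and 66.7 CPM in the 1-week SOX17KO and Control libraries (-4.37 ± 0.48, adjusted p = 4.89e-17). Mucl1, a small secreted mucin-like protein gene, was at 2.91 and 0 CPM in the 2-week SOX17KO and Control libraries, against 54.5 and 177 CPM in the 1-week SOX17KO and Control libraries (-5.81 ± 0.44, adjusted p = 4.39e-36). Areg, amphiregulin, an EGF receptor ligand, was at 2.91 and 0 CPM against 27 and 19.4 CPM (-3.77 ± 0.63, adjusted p = 2.85e-07).

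The members chosen and the libraries used bear on these counts. The share of members with C1q differed between the 4 libraries. With only members of 3 or more C1q UMIs they gave 241 genes higher and 267 lower, and 427 of these 508 were among the 784. With the untimed pair kept, leaving out any of the 4 timed libraries left 0 or 1 call. Without members carrying 3 or more UMIs of another lineage than monocytes, 102 were higher and 124 lower, 195 of them among the 784. This cut left 121 and 112 members at 2 weeks and 251 and 191 at 1 week, SOX17KO before Control. At 1 week 74.2% and 81.0% of members carried Naaa, which gave 84.7% and 86.6% of the type 1 dendritic cell list. The cut thus fell unevenly on the libraries, and how far it removed other cells was not tested.

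Between the genotypes no gene passed with all 6 libraries: 0 of 7844 (0%) in edgeR, with 127 at an unadjusted p under 0.05, and 0 each in DESeq2 and limma-voom. The groups of genes that stood out by direction were type I interferon genes, lower in SOX17KO, and Gpnmb and Vcam1, higher in SOX17KO, at each of the 3 collections. On the 4 timed libraries alone edgeR called 19 of 9370 genes higher in SOX17KO (0.203%) and 12 lower (0.128%), limma-voom 27 and 21, and DESeq2 0, with 49 at an unadjusted p under 0.05. With the untimed pair kept, leaving out the 1-week or the 2-week collection gave 0 calls in edgeR, with 442 and 45 genes at an unadjusted p under 0.05. A genotype difference is called a rise or fall below where it passed in the 4 timed libraries. Parentheses in the paragraphs on genotype hold the log2 fold change ± SE of SOX17KO over Control in those 4 libraries with edgeR's adjusted p, which again rests on a spread common to all genes.

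Of 19 tested type I interferon genes, 18 were lower in SOX17KO in each of the 3 pairs and 0 were higher in each, while 1301 of all 7844 genes (16.6%) were lower in each. The list medians were -0.89 at 2 weeks, -0.43 at 1 week and -3.20 in the untimed pair, on the log2 scale of SOX17KO over Control, against -0.0094, 0.00064 and -0.00030 for all genes. Monocyte transcripts were lower in SOX17KO at 2 weeks and in the untimed pair but not at 1 week. In SOX17KO and Control, their list summed to 2691 and 5072 CPM at 2 weeks and 4309 and 3941 CPM at 1 week. In the untimed pair it summed to 700.1 and 5094 CPM. Neutrophil transcripts were lower in SOX17KO only in the untimed pair, at 251 and 6892 CPM. They were higher at 2 weeks, at 1316 and 164 CPM, and at 1 week, at 1245 and 708 CPM. The part of monocyte and neutrophil transcripts in the result was not tested. With only members of 3 or more C1q UMIs, the 6-library log2 fold change of Ifit3 was -0.76 in place of -1.71, and that of Isg15 was -1.27 in place of -1.98. The untimed Control library then held 5 members. Isg15 was at 48.5 CPM in SOX17KO and 177 CPM in Control at 2 weeks, 252 CPM in SOX17KO and 434 CPM in Control at 1 week, and 18.3 CPM in SOX17KO and 406 CPM in Control in the untimed pair. All SOX17KO libraries but the 1-week one lay under every Control library, and Isg15 fell in the 4 timed libraries (-1.20 ± 0.21, adjusted p = 7.93e-06). Ifit1, an interferon-induced RNA-binding protein gene, was at 7.77 CPM in SOX17KO and 17.7 CPM in Control at 2 weeks, 26.7 CPM in SOX17KO and 60.4 CPM in Control at 1 week, and 11 CPM in SOX17KO and 21.9 CPM in Control in the untimed pair (-1.18 ± 0.29, adjusted p = 0.0298). Ifit3, of the same family, was at 2.91 CPM in SOX17KO and 17.7 CPM in Control at 2 weeks, 19.4 CPM in SOX17KO and 43.5 CPM in Control at 1 week, and 3.66 CPM in SOX17KO and 43.9 CPM in Control in the untimed pair (-1.38 ± 0.34, adjusted p = 0.0298). Ifit3 has a near-identical copy, Ifit3b, and reads of the pair may be split. Rsad2, viperin, an antiviral enzyme gene, was at 86.4 CPM in SOX17KO and 129 CPM in Control at 2 weeks, 103 CPM in SOX17KO and 198 CPM in Control at 1 week, and 11 CPM in SOX17KO and 113 CPM in Control in the untimed pair (-0.79 ± 0.21, adjusted p = 0.0454). These 4 were the genes of the list that passed, 4 of 20. The most abundant of the list, Ifitm3, a membrane protein that blocks virus entry, was at 877 CPM in SOX17KO and 1754 CPM in Control at 2 weeks, 2368 CPM in SOX17KO and 2504 CPM in Control at 1 week, and 271 CPM in SOX17KO and 2799 CPM in Control in the untimed pair, and did not pass (-0.53 ± 0.19, adjusted p = 0.489).

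The start regions of 3 of these genes are shown because the genes were lower together in SOX17KO and are known targets of interferon-activated transcription factors. The sequences are those of RefSeq for build GRCm38.p6, from 250 bases before to 50 bases after the start of the gene, 5' to 3' on the strand of the gene: chr4:156200769-156201068 (minus strand) for Isg15, chr19:34640639-34640938 (plus) for Ifit1 and chr19:34583279-34583578 (plus) for Ifit3. Capitals mark GAAA followed after any 2 bases by a second GAAA, or the same read on the other strand (TTTC, any 2 bases, TTTC), with overlapping matches joined. This is the core of the interferon-stimulated response element.
Isg15: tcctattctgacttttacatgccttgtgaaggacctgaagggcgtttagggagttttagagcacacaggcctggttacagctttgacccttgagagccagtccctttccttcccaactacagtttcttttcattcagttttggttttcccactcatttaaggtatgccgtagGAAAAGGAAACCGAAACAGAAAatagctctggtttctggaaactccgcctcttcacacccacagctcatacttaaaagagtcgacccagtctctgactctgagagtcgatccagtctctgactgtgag
Ifit1: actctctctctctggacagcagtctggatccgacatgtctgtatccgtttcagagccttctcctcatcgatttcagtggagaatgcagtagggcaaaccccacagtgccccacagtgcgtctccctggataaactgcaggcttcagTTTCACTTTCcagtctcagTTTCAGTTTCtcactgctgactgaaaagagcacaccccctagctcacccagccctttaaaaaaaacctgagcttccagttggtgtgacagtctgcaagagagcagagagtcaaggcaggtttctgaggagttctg
Ifit3: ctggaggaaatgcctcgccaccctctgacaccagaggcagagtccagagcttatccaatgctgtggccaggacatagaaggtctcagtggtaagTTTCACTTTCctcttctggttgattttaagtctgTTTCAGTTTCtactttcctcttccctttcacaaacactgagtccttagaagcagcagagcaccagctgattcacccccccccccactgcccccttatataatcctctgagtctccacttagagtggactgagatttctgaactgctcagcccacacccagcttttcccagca
The motif was found 3 times, overlapping, in the window of Isg15 and 2 and 2 times in those of Ifit1 and Ifit3. Of the type I list, 10 of the 17 genes with an entry had it, against 1079 of 27025 genes in the table (3.99%) and 279 of the 6302 tested genes with an entry (4.43%). The window of Gpnmb held none. A match is a run of letters and says nothing of binding in these cells.

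Read per barcode after thinning to 1000 UMIs, Isg15 was found in 2.93% [1.08, 6.26] of 2-week SOX17KO members and 16.5% [11.1, 23] of 2-week Control members, with 95% Clopper-Pearson intervals. At 1 week the shares were 18% [15.2, 21.2] and 28.5% [24.8, 32.5], and in the untimed pair 1.89% [0.0478, 10.1] and 18.6% [9.69, 30.9], in SOX17KO and Control. The share was lower in SOX17KO in each of the 3 pairs, with 1 library behind each value. T cell barcodes, which can themselves respond to interferon, had 1.83% and 2.21%, 12.8% and 16.9%, and 6.20% and 5.09% in the same order. The untimed SOX17KO share, from 1 barcode, was below that of T cells and is read as background. Without thinning, the 2-week shares were 16.1% and 30.1% and the 1-week shares 48.9% and 58.7% in SOX17KO and Control.

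Of 18 tested genes of the interferon-gamma list, 5 were lower in SOX17KO in each pair and 0 higher. Its 1 gene that passed was Socs1, a feedback inhibitor of cytokine signalling (-0.91 ± 0.23, adjusted p = 0.0394), though it was higher in SOX17KO in the untimed pair (0.95). Of 20 class I presentation genes, 13 were lower in each pair, Psmb8 among them with -0.79 at 2 weeks, -0.23 at 1 week and -0.93 in the untimed pair, but none passed in the 4 timed libraries. A direction counted in this way can be within counting error. Class II genes gave list medians of 0.051 at 2 weeks, -0.078 at 1 week and 1.81 in the untimed pair. There, without TMM scaling, H2-Ab1 was at 5596 CPM in SOX17KO members with 3 or more C1q UMIs and 5146 CPM in those with 0. In Control these were 2426 and 1292 CPM, from 5 and 52 members. Lists of type 2 and of mature dendritic cells summed to 214 and 450 CPM in untimed SOX17KO and 145 and 122 CPM in untimed Control. The part of C1q or of dendritic cell transcripts in the class II difference was not tested.

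Gpnmb, a lysosomal and surface glycoprotein of lipid-laden macrophages, was higher in SOX17KO in each pair. It was at 44.7 CPM in SOX17KO and 14.8 CPM in Control at 2 weeks, 43.3 CPM in SOX17KO and 9.39 CPM in Control at 1 week, and 293 CPM in SOX17KO and 3.66 CPM in Control in the untimed pair, and each SOX17KO library lay above every Control library. It rose in the 4 timed libraries (2.00 ± 0.32, adjusted p = 1.20e-06), and with members of 3 or more C1q UMIs in all 6 libraries it rose too (log2 fold change 2.51 ± 0.37, edgeR adjusted p = 1.20e-07). That setting was chosen after the data had been seen, and it left 36 members in the untimed SOX17KO library and 5 in the untimed Control library. In the fit to all members of 6 libraries it was at 2.67 ± 0.58 with an edgeR adjusted p of 1. Few barcodes carried it: after thinning, 3.41% [1.38, 6.91] of 2-week SOX17KO members and 0 of 164 Control members, which at a floor of 3 counts allows up to 1.83%. At 1 week the shares were 2.09% [1.15, 3.48] and 0.361% [0.0437, 1.30], and in the untimed pair 18.9% [9.44, 32] and 0 of 59 (up to 5.08%), with T cell barcodes at 0.282%, 0.147%, 0%, 2.60%, 0.402% and 0.213% in the order of these 6 libraries. The 2.60% of T cells in the 1-week Control library is above its 0.361% of members and comes from 77 T cell barcodes. Without thinning, the shares were 9.63% and 3.98% at 2 weeks, 5.15% and 2.94% at 1 week, and 21.1% and 1.69% in the untimed pair, in SOX17KO and Control, so the ratio of the genotypes at 1 week was smaller than in the thinned shares. Other lipid-associated genes did not pass: 6 of 14, Gpnmb included, were higher in each pair and 1 lower, against 13.4% of all genes that were higher in each, and Apoe was lower in SOX17KO at 1 week (-0.35) and higher at 2 weeks (0.36).

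Vcam1, an adhesion molecule gene that resident macrophages can carry, was at 58.2 CPM in SOX17KO and 1.48 CPM in Control at 2 weeks, 30.4 CPM in SOX17KO and 11.3 CPM in Control at 1 week, and 54.9 CPM in SOX17KO and 0 CPM in Control in the untimed pair (2.10 ± 0.34, adjusted p = 1.68e-06). Dnase1l3, a DNase secreted by macrophages and dendritic cells, was at 81.5 CPM in SOX17KO and 20.7 CPM in Control at 2 weeks, 19.4 CPM in SOX17KO and 12.2 CPM in Control at 1 week, and 73.1 CPM in SOX17KO and 0 CPM in Control in the untimed pair (1.21 ± 0.30, adjusted p = 0.0299). Both were higher in SOX17KO in each pair. Apol7c, Saa3, Pgf, Adamdec1, Adap2os, Gtf3c3 and Ddhd1 made up the rest of the 10 genes highest in SOX17KO by the value nearest 0 of the 3 pairs. Of these Ddhd1, a phospholipase gene, passed in the 4 timed libraries (0.77 ± 0.20, adjusted p = 0.0498). Adamdec1, a protease gene of gut macrophages, was at 15.5 CPM in SOX17KO and 1.48 CPM in Control at 2 weeks, 4.13 CPM in SOX17KO and 0.939 CPM in Control at 1 week, and 18.3 CPM in SOX17KO and 0 CPM in Control in the untimed pair (42 UMIs in all).

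The 10 genes lowest in SOX17KO by the same rule were Tnfrsf9, Ifit3, Edil3, Ifit1, Tgm1, Cmpk2, Ednrb, Isg15, Inhba and Sec61a2, of which Ifit3, Ifit1, Cmpk2 and Isg15 are interferon-induced. Tnfrsf9, the gene of the costimulatory receptor 4-1BB, was at 1.94 CPM in SOX17KO and 13.3 CPM in Control at 2 weeks, 4.13 CPM in SOX17KO and 17.5 CPM in Control at 1 week, and 11 CPM in SOX17KO and 25.6 CPM in Control in the untimed pair, with 94 UMIs in all libraries (-2.21 ± 0.53, adjusted p = 0.0193). Inhba, the activin A subunit gene, was at 11.6 CPM in SOX17KO and 81.3 CPM in Control at 2 weeks, 39.9 CPM in SOX17KO and 66.4 CPM in Control at 1 week, and 11 CPM in SOX17KO and 219 CPM in Control in the untimed pair (-1.31 ± 0.24, adjusted p = 4.95e-05). Ccl4, an inflammatory chemokine gene, was at 401 CPM in SOX17KO and 813 CPM in Control at 2 weeks, 889 CPM in SOX17KO and 1268 CPM in Control at 1 week, and 278 CPM in SOX17KO and 556 CPM in Control in the untimed pair (-0.76 ± 0.19, adjusted p = 0.0298). For these 3 genes SOX17KO was lower in each pair. Il12b, a subunit of interleukins 12 and 23, fell (-2.43 ± 0.56, adjusted p = 0.0123) but had 22 of its 66 UMIs in the 2-week Control library and 30 in the 1-week Control library. Serpinb1a fell (-2.35 ± 0.39, adjusted p = 3.97e-06) with 109 CPM in the 2-week Control library and at most 7.83 CPM in the other 5, so 1 library carried it. Mucl1 was lower at 1 week (-1.68) and had 3 and 0 UMIs at 2 weeks. Tspo, a mitochondrial membrane protein gene, made up the 12 (-0.74 ± 0.19, adjusted p = 0.0394).

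Part of the genes higher in SOX17KO were neutrophil genes. S100a8, a subunit of calprotectin, was at 490.2 CPM in SOX17KO and 23.6 CPM in Control at 2 weeks, 378 CPM in SOX17KO and 205 CPM in Control at 1 week, and 0 CPM in SOX17KO and 1130.4 CPM in Control in the untimed pair (2.05 ± 0.22, adjusted p = 7.66e-18). Its partner S100a9 was at 456 CPM in SOX17KO and 14.8 CPM in Control at 2 weeks, 421 CPM in SOX17KO and 217 CPM in Control at 1 week, and 0 CPM in SOX17KO and 1990.1 CPM in Control in the untimed pair (2.15 ± 0.22, adjusted p = 2.67e-19). The 2-week difference was many times the 1-week one for both. Retnlg, another neutrophil gene, rose by 3.52, G0s2 by 1.22, Slpi by 0.93, Hdc by 0.90 and Il1r2 by 0.81 on the log2 scale. Few barcodes carried these levels. Without thinning, S100a8 was found in 6.42% of the 218 2-week SOX17KO members and 3.41% of Control ones, S100a9 in 3.67% and 2.27%, and Retnlg in 2.29% and 0%. At 1 week the shares were 10.9% and 8.82% for S100a8, 9.01% and 8.30% for S100a9, and 2.86% and 1.38% for Retnlg. In the untimed pair S100a8, S100a9, G0s2 and Hdc were lower in SOX17KO. The neutrophil list summed to 1316 and 164 CPM at 2 weeks and 1245 and 708 CPM at 1 week in SOX17KO and Control. Members with 3 or more of its UMIs were 5.96% and 5.11% at 2 weeks and 14.6% and 14% at 1 week. The part of neutrophil RNA in these differences was not tested. Without members that carried 3 or more UMIs of another lineage, the 4 timed libraries gave 11 genes higher and 3 lower, and of these 14 genes 6 were among the 31: Gpnmb, Inhba, Isg15, Rps28, Rps29 and Slpi. As given for time, this cut took many 1-week members that carried Naaa, and how far it removed other cells was not tested. With members of 3 or more C1q UMIs the 4 timed libraries gave 3 higher and 3 lower, of which Gpnmb, Vcam1, Retnlg, Tnfrsf9 and Mucl1 were among the 31. The sixth was Cxcl10, called lower in SOX17KO, and Isg15 was not called. In all members Cxcl10 was higher in SOX17KO at 2 weeks (0.68) and lower at 1 week (-0.63), on the log2 scale. The remaining genes called higher were Csf1, the growth factor gene of macrophages (1.00 ± 0.26, adjusted p = 0.0498), Acp5, Lmna, Hist1h2bc, Rpl38, Rps28, Rps29 and Rps27rt, the last 4 of ribosomal proteins.

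**Figure D4:**
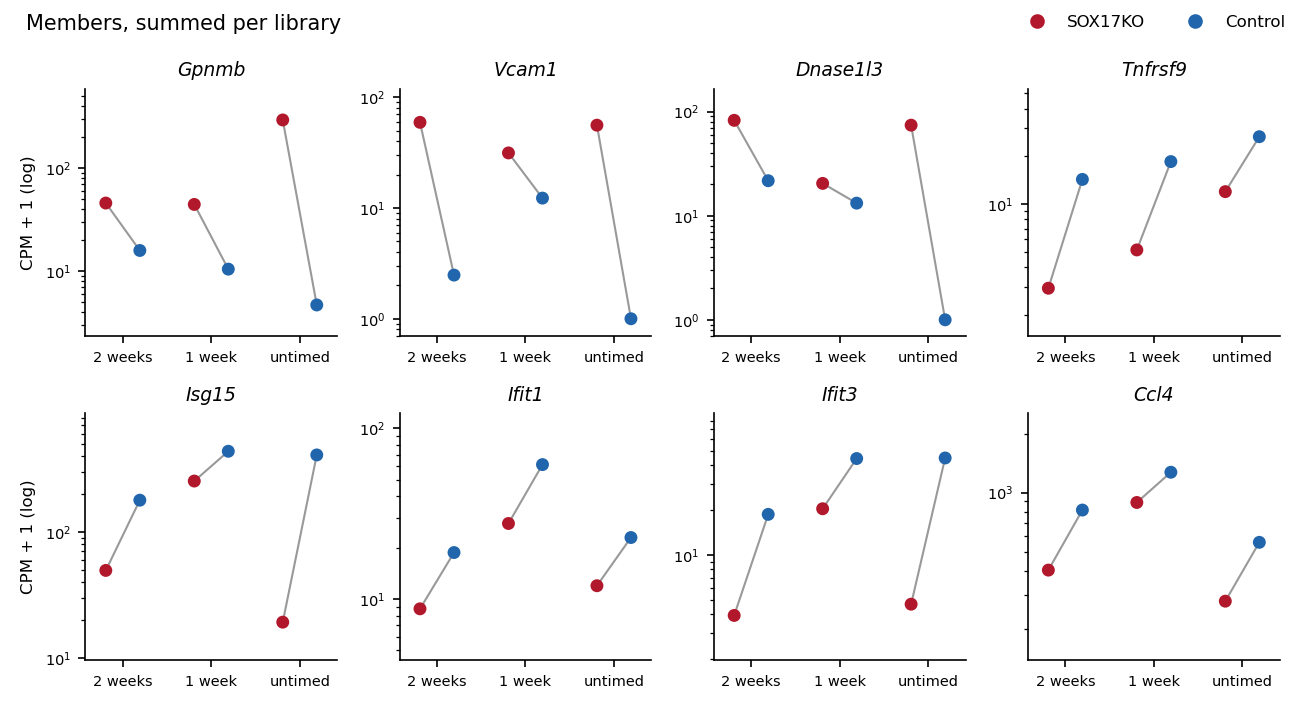
Expression of 8 genes in Arg1-low Cxcl9-low members (CPM + 1, log y axis), 1 point for each library, red for SOX17KO and blue for Control, with a line joining the genotypes of a collection. Gpnmb, Vcam1 and Dnase1l3 lay higher and Tnfrsf9, Isg15, Ifit1, Ifit3 and Ccl4 lower in the SOX17KO library of each collection.

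No gene of the resident-type, lysosome, phagocytosis, complement, class II, class I, alternative activation, chemokine, hypoxia, iron, matrix, cell cycle, immediate early or mitochondrial lists passed between the genotypes in the 4 timed libraries. Resident-type genes had medians of 0.58 at 2 weeks, -0.46 at 1 week and 2.03 in the untimed pair, and 2 of 13 were higher in SOX17KO in each pair, near the 13.4% of all genes. Mrc1 was at 446 CPM in SOX17KO and 389 CPM in Control at 2 weeks, 863 CPM in SOX17KO and 1049 CPM in Control at 1 week, and 527 CPM in SOX17KO and 128 CPM in Control in the untimed pair. Hypoxia genes had medians of -0.21, -0.010 and -1.24 in the same order. Iron genes had -0.11, -0.15 and -0.47, matrix genes 0.28, -0.081 and 0.086, and lysosome genes 0.25, -0.043 and 0.21. The untimed medians lay furthest from 0 for the resident-type, hypoxia and iron lists, but not for the matrix and lysosome lists. They rest on 57 and 59 members.

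Set beside the other macrophage-gate barcodes of the same library, the members had less of the genes that tend to go with Arg1 and with Cxcl9, and more resident-type transcripts than the Cxcl9 barcodes. The classes were cut from the same counts, so this is a description with no test. Values are the log2 ratio of members over the other class on CPM + 1 without TMM scaling, as mean ± SD over the 4 timed libraries. List genes were kept with at least 30 UMIs in members and Arg1-high barcodes together, also for the comparison with Cxcl9 barcodes. Against Arg1-high barcodes, hypoxia and glycolysis genes had a list median of -1.40 ± 0.13, and 17 of 17 were lower in members in all 4 libraries. Pgk1, a glycolytic kinase gene, was at -1.60 ± 0.22, Vegfa at -1.50 ± 0.36 and Egln3, an oxygen-sensing hydroxylase gene, at -1.96 ± 0.39. Inflammatory cytokine genes were at -0.57 ± 0.12 (10 of 16 lower in 4 libraries) and lipid-associated genes at -0.50 ± 0.19 (8 of 15), with Spp1 at -2.94 ± 0.80. Thinned to 2000 UMIs, the lipid-associated median was -0.28 ± 0.12, with 6 of 15 lower and 2 higher in 4 libraries. Class II genes were higher in members, at 0.46 ± 0.15 (8 of 10 higher in 4 libraries). Cx3cr1, the fractalkine receptor gene of gut macrophages, was higher as well at 1.77 ± 0.31.

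Against Cxcl9 barcodes, interferon-gamma genes were at -0.86 ± 0.20, with 17 of 18 lower in members in all 4 libraries, and class I genes at -0.40 ± 0.058 with 16 of 20 lower. Gbp2 was at -1.29 ± 0.34 and Cxcl10 at -1.63 ± 0.91. Resident-type genes were higher in members at 1.47 ± 0.35 (8 of 14), with Mrc1 at 1.07 ± 0.23 and Folr2 at 2.45 ± 0.61, and lipid-associated genes at 0.80 ± 0.22 (11 of 15), with Apoe at 1.24 ± 0.25. Genes could enter these lists through members but not through Cxcl9 barcodes, which favours values above 0. Thinned to 2000 UMIs, the resident-type median was 1.41 ± 0.67 (7 of 14), with 0.45 in place of 1.30 in the 2-week Control library. Class II genes were level between these 2 classes, at 0.049 ± 0.28. In the 2-week SOX17KO members the type I interferon list had a median of -0.96 against Arg1-high barcodes, and in the 2-week Control members 0.42; thinned to 2000 UMIs these were -0.98 and -0.0069. Against Cxcl9 barcodes they were -0.85 and 0.026, but -0.63 and -0.54 after thinning. The rule was applied anew to the thinned counts, so the classes changed as well. The Cxcl9 barcodes of the 2-week Control library, for example, went from 60 to 42. Whether depth or the changed classes moved these values was not tested. Nos2 was lower in members than in either, at -3.18 ± 0.61 against Arg1-high and -2.15 ± 1.23 against Cxcl9 barcodes.

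**Figure D5:**
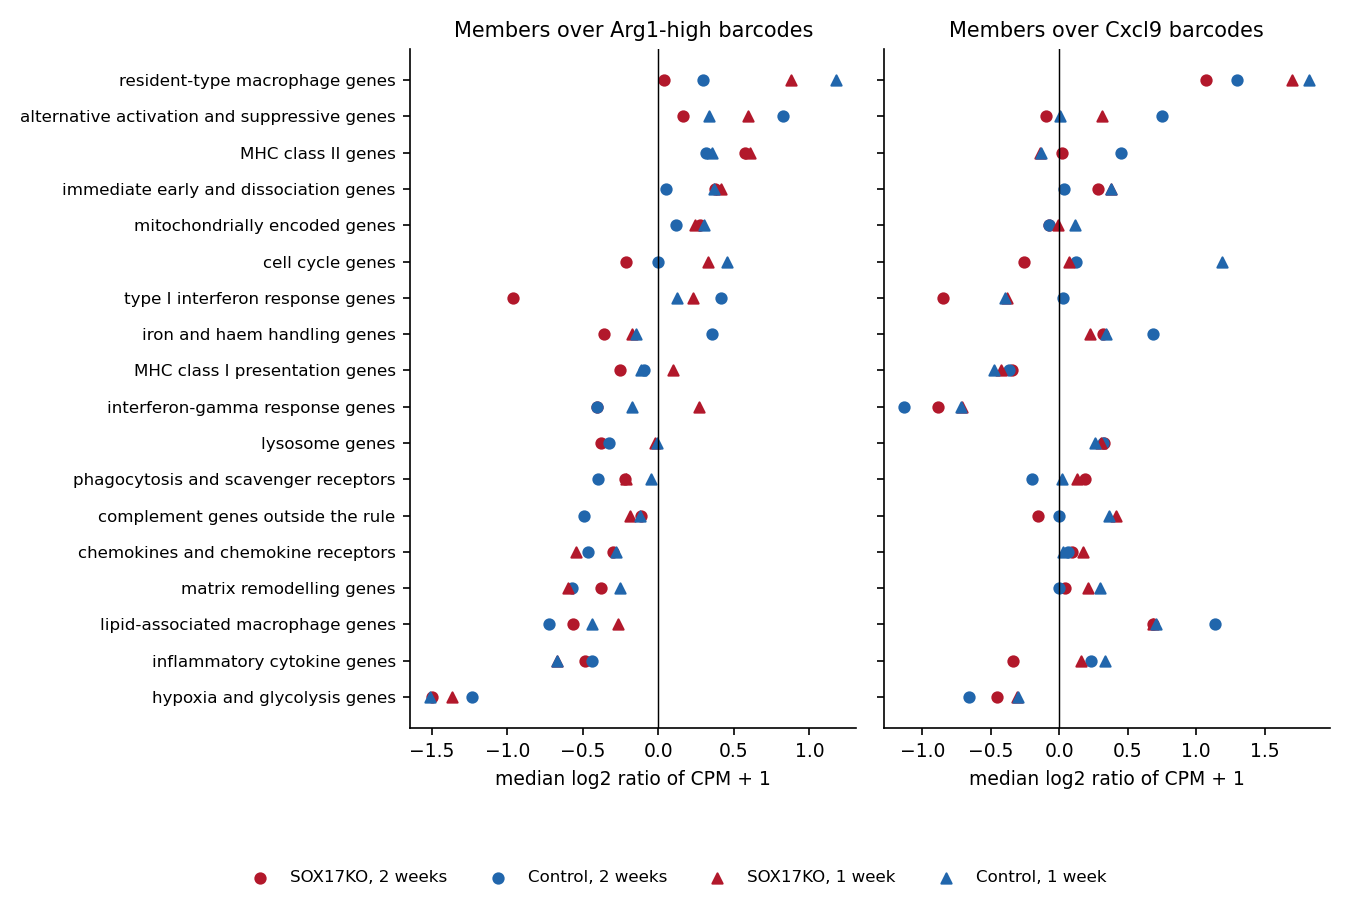
Median log2 ratio of CPM + 1 of members over Arg1-high barcodes (left) and over Cxcl9 barcodes (right) for 18 gene lists (rows), 1 point for each timed library, circles for 2 weeks, triangles for 1 week, red for SOX17KO and blue for Control. Hypoxia and glycolysis genes lay between -1.51 and -1.23 against Arg1-high barcodes in all 4 libraries.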

How the data were processed

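The authors deposited 1 matrix of raw UMI counts per gene and barcode for each of 6 libraries, holding barcodes already called as cells and 32285 genes. Per the submitters' processing notes the tool was Cell Ranger 6.0.1 with build mm10, while the deposited matrices name Cell Ranger 7.0.1 in their headers; the intron setting and annotation release are not recorded in any source used. The libraries held 18281322 to 52150180 UMIs, and the members 271402 to 4145068.

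Member counts were summed per library and tested with edgeR 4.0.16 (quasi-likelihood, TMM, filterByExpr, Benjamini-Hochberg adjusted p of 0.05), with limma 3.58.1 and DESeq2 1.42.0 as alternatives, in R 4.3.3. The SE of a fold change is its size divided by the root of F. The prior degrees of freedom were 4.55 with 6 libraries and infinite with 4. The 16 genes of the rule stayed out of the counts of calls. Pair values are log2 ratios of TMM-scaled CPM with a prior count of 2. On simulated counts the 6-library fit recovered 100% (genotype) and 95% (time) of genes changed by 2 on the log2 scale, and 34% and 10% of those changed by 1. The changed genes were drawn from the more abundant ones, with a spread common to all genes and no outlying library. Recovery of scarcer genes, or with a library that stands apart as the untimed Control did, was not measured. Members, gene lists and tests were chosen with earlier results of these data known. Named are the genes of the rule and Apoe, the 10 highest and 10 lowest by the pair value nearest 0 (at least 30 UMIs, same sign in each pair), and up to 4 abundant and all called members of each of 18 lists, 1 gene of which (Clec7a) was not matched by symbol. A few genes that the rule names are not reported here. Other genes called in the 4 timed libraries were named after their values were seen. Doublets were scored by simulated neighbours (30 components, 2000 genes), with the top 0.8% per 1000 barcodes removed as an alternative. T cell barcodes, the background of the readouts, had 2 or more Cd3 UMIs and none of the selecting macrophage genes. Positions are those of GENCODE for mm10, matched by Ensembl identifier. Python 3.11.15, numpy 2.4.6, scipy 1.17.1 and pandas 2.3.3 were used. Intervals cover counting error only.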

Additional observations from a re-analysis of the deposited data

Results flagged for a closer look

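Several genotype differences pointed in opposite directions at 2 weeks and at 1 week. With 1 library in each group these differences between the weeks were not tested. Genes were picked out, from 72 leading genes of the lists, where both values were at least 0.3 on the log2 scale and both counting intervals left out 0.

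The share of members among all barcodes had a log2 odds of SOX17KO over Control of 1.03 at 2 weeks and -0.15 at 1 week. Among the macrophage gate it was 0.67 at 2 weeks and -0.26 at 1 week. On the log2 scale of SOX17KO over Control, Apoe was at 0.36 at 2 weeks and -0.35 at 1 week, and the complement receptor gene C3ar1 at 0.92 and -0.41. The members with 3 or more C1q UMIs were 73.4% and 55.7% at 2 weeks and 67.4% and 75.4% at 1 week in SOX17KO and Control, and their part in these values was not tested. Cxcl10, an interferon-induced chemokine gene, was at 0.68 at 2 weeks and -0.63 at 1 week, and the glycolysis gene Gapdh at -0.42 and 0.43. Chil3, a chitinase-like protein gene, was at -0.93 at 2 weeks and 1.01 at 1 week. Its difference of 2 weeks over 1 week was -1.14 in SOX17KO and 0.79 in Control, likewise not tested.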

How the results depend on the processing

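Both gene comparisons called 0 genes with all 6 libraries, and that count depended on the untimed pair, on the filter and on the members taken. For time, the 4 timed libraries gave 336 higher and 448 lower, and in them 241 higher and 267 lower with 3 or more C1q UMIs, 262 higher and 287 lower with 6 or more selecting UMIs, 102 higher and 124 lower without members of other lineages, 35 higher and 50 lower in DESeq2 and 487 higher and 444 lower in limma-voom. With 6 libraries time gave 99 higher and 108 lower with 3 or more C1q UMIs, 53 higher and 109 lower without the count filter, 1 higher and 7 lower in DESeq2, 0 higher and 2 lower with 6 or more selecting UMIs and 0 higher and 1 lower without members of other lineages. Leaving out 1 library, the counts ran from 0 to 333 higher and 0 to 477 lower; without the untimed Control library they were 297 higher and 477 lower, and without the untimed SOX17KO library 333 higher and 412 lower. For genotype, leaving out 1 pair gave 0 to 19 higher and 0 to 12 lower, the high counts without the untimed pair. No count filter gave 41 higher and 27 lower, and 3 or more C1q UMIs 6 higher and 14 lower. In the 4 timed libraries genotype gave 3 higher and 3 lower with 3 or more C1q UMIs, 9 higher and 5 lower with 6 or more selecting UMIs, 11 higher and 3 lower without other lineages, 27 higher and 21 lower in limma-voom and 0 higher and 0 lower in DESeq2. Why the untimed pair, whose Control library had few C1q-bearing members, removed the calls was not tested. DESeq2 size factors, doublet removal, at most 5% mitochondrial UMIs and, for genotype, no collection term left the counts at 0. The ranked genes kept their direction in all 304 genotype and 378 time alternatives computed for them. They passed the threshold in 45 and 173 of these. They had been chosen for the same sign in every pair of these data, so the kept direction was largely fixed by that choice. The mean log2 odds of the share, 0.31, ran from -0.047 to 0.54 with 1 pair left out, negative without the 2-week pair, and for the share of all barcodes from 0.23 to 1.31 elsewhere, the highest with 3 or more C1q UMIs and then 0.95 with 6 or more selecting UMIs. The mean log2 odds of the share of the macrophage gate, 0.37, turned to -0.12 with barcodes thinned to 2000 UMIs (untimed pair -0.88) and was 0.17 with 6 or more selecting UMIs. List ratios against the other classes moved by more than their SD in 7 of 36 on thinning to 2000 UMIs, with the classes cut anew from the thinned counts. The settings of 3 or more C1q UMIs and all other variants within the 4 timed libraries, apart from that fit itself, were chosen after seeing the data. The labels carry no replicate numbers, and the genotypes were paired by collection in every fit except the one with no collection term.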

Other observations

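Values that stand in no comparison above concern the untimed Control members. Thbs1, thrombospondin 1, was at 358 and 4847 CPM in the untimed SOX17KO and Control members, the monocyte gene Plac8 at 91.4 and 3120.5 CPM, and Il1a, interleukin 1 alpha, at 14.6 and 589 CPM. Retnla was at 2011 and 2598 CPM at 2 weeks, 831 and 949 CPM at 1 week and 6302 and 0 CPM in the untimed pair, in SOX17KO and Control. Of the Arg1-high class the untimed SOX17KO library had 0 and the untimed Control library 2 barcodes, and of the Cxcl9 class 1 and 0.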
